A study of Danio rerio with 2 samples.

Results

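The cytosolic ribosomal protein genes were examined in single cells sorted from the caudal hematopoietic tissue of zebrafish larvae. A gene was a member when its Ensembl zebrafish name, with case ignored, was rpl, rps or rplp followed by a protein number, with at most 1 trailing letter or copy number. This rule found 69 of 19955 gene rows on both plates, with 66 distinct names: 35 genes of the large subunit, 31 of the small subunit and 3 of the stalk (RPLP0, RPLP1 and rplp2l). Of the members, 61 have a name written in capitals as human symbols, and symbols are given here as the gene tables pair them.

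The eukaryotic ribosome is built of a small subunit, which reads the mRNA, and a large subunit, which forms peptide bonds, and each carries a set of proteins around its ribosomal RNA. The proteins are needed in matched amounts, and in vertebrates their mRNAs share a terminal pyrimidine tract that couples their translation to growth signals. Precursor cells of the blood make many ribosomes, and heterozygous loss of single ribosomal protein genes causes Diamond-Blackfan anemia in humans, in which red cell precursors are lacking.

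All cells came from wild-type larvae at 5 days post fertilization, with a sort day of 6 in the labels, and were sorted into 2 plates of 384 wells, called plate 20 and plate 21, for CEL-seq2, which counts the 3′ ends of transcripts by molecular identifiers. The plate layouts assigned wells to a double class or a single class; the labels do not define the markers behind these words, and both classes were sorted into each plate. Cells were wells that reached 500 transcripts, namely 189 double and 111 single cells on plate 20 and 186 double and 89 single cells on plate 21. No label ties either plate to its own animals, so the spread between plates, on which p-values rest, may be technical. The cells were described by the submitters as hematopoietic stem and progenitor cells, and 15 progenitor genes that could be matched together held 0.128% to 0.159% of transcripts in the 4 sums of plate and class. Endothelial markers, 12 genes together, had 16.4 and 19.5 CPM (transcripts scaled to a fixed library total) in double cells of plates 20 and 21, against 19.8 and 171 CPM in single cells. Markers of other cells were present: globin genes held 2.82% to 6.39% of transcripts, neutrophil markers 0.123% to 0.506% and muscle markers 0.0726% to 2.82%.

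Ribosomal protein genes gave 21.3% of all transcripts in the 575 cells. Because 1 identifier stands for 1 transcript end, levels of different members can be set side by side without a correction for length, although capture may differ between genes. RPLP1, a stalk protein that helps to recruit elongation factors, was the highest member with 41907 transcripts. RPS2, a small subunit protein at the mRNA entry channel, had 38527 transcripts, and RPLP0, the base of the stalk, had 32491. RPL6, of the large subunit, had 31795 transcripts, and rps27a, whose product is made as a fusion with ubiquitin, had 31021. These 5 members together held 14.04% of the family's transcripts.

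RPLP1 ranked first in each of the 4 sums: it had 6232 and 7899 CPM in double cells of plates 20 and 21, against 6959 and 7364 in single cells. RPS2 ranked second in each, with 5890 and 7068 CPM in double cells against 6482 and 6802 in single cells. At the low end, RPL3, a protein close to the peptidyl transferase center, had 3608 transcripts in all cells, and RPL4, which lines the exit tunnel, had 2308. rps27.2, a second copy of the zinc finger protein of the small subunit, had 4887. rps11l was far lower, with 61 transcripts. In all, 67 members had at least 1000 transcripts each, spanned an 18.2-fold range and were seen in a median of 97.9% of cells, the lowest being RPL4 in 73.0%. At that depth the absence of a member from a cell cannot be told apart from a missed transcript.

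**Figure D1:**
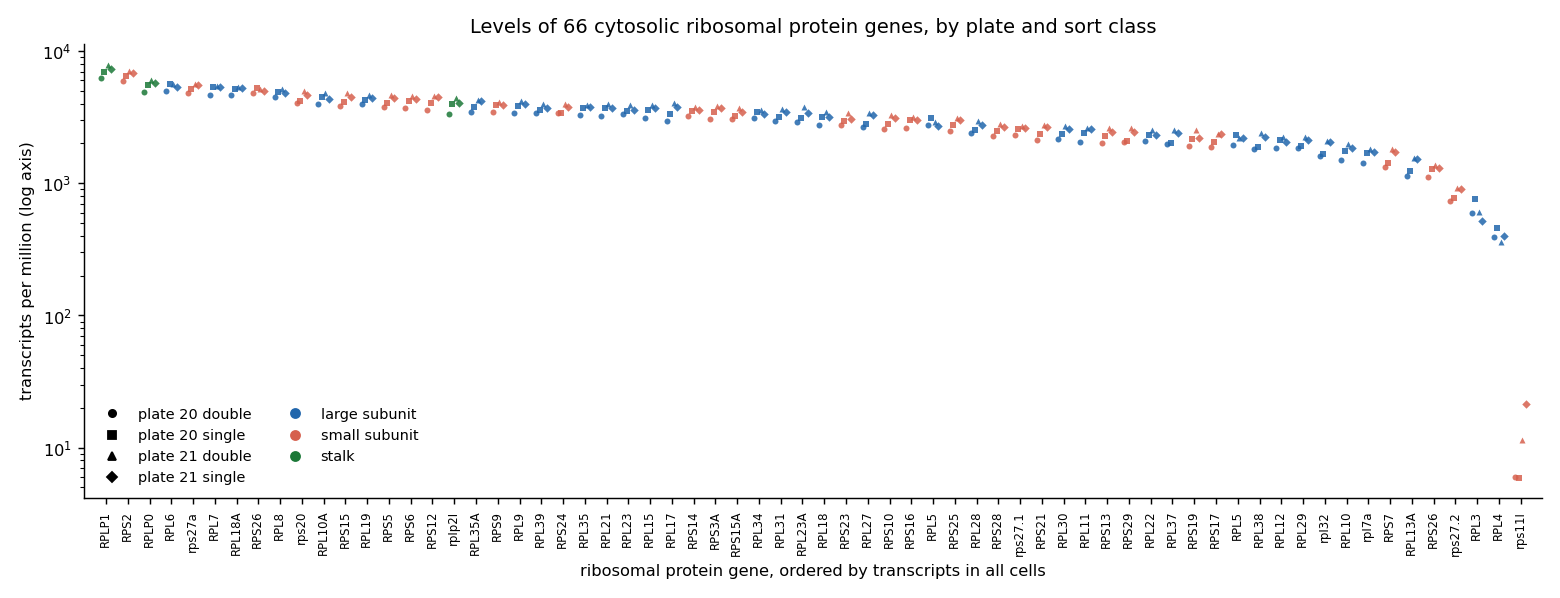
Level of 66 of the 69 ribosomal protein genes in CPM (log axis), with 1 point for each plate and sort class, coloured by subunit and ordered from left to right by transcripts in all cells. RPLP1 and RPS2 lead in all 4 sums, and rps11l, with 61 transcripts in all cells, stands far below the other genes drawn.

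Several members exist as copies with separate rows, and reads of near-identical copies may be split between them by the alignment, so that a share of a pair is uncertain as a measure of either gene. The lower RPL5 row (ENSDARG00000020197) held 41.4% and 43.4% of the pair's transcripts in double cells of plates 20 and 21, against 42.6% and 45.02% in single cells. RPL5 binds the 5S ribosomal RNA together with RPL11 before both enter the large subunit. The lower RPS26 row (ENSDARG00000037071), a protein at the mRNA exit site, held 18.9% and 20.9% of its pair in double cells of plates 20 and 21, against 19.6% and 20.8% in single cells. For rps27.2 the share of its pair with rps27.1 was 23.9% and 25.3% in double cells, against 23.1% and 25.7% in single cells. The exact 95% binomial intervals of double and single cells, which cover counting error only, overlapped within each plate for all of these pairs.

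Between the sort classes the summed family share differed in opposite directions on the plates, while the median per cell was higher in double cells on both. Ribosomal protein genes held 19.0% of summed transcripts in double cells against 20.95% in single cells of plate 20, and 23.2% in double cells against 21.96% in single cells of plate 21. The double share was thus lower on plate 20 by 1.98 percentage points and higher on plate 21 by 1.23 points. On plate 20 most of that difference rested on 1 double well of 249815 transcripts, of which 18.8% came from muscle markers and 8.52% from ribosomal protein genes; without it the difference was -0.32 points. The difference on plate 21 was 0.36 points with its layout read down columns, where numbering along rows was assumed. Without cells over 5% muscle, epidermis or stroma the differences were -0.81 points on plate 20 and 0.63 on plate 21. In the MYB-detected cells defined below they were -0.99 and -0.06 points. The medians per cell were 20.97% in double against 20.6% in single cells of plate 20, and 23.0% in double against 21.8% in single cells of plate 21. Per cell, the share ran from 6.31% to 39.6% (plate 20) and 2.31% to 37.4% (plate 21) in double cells, against 2.68% to 36.3% and 3.97% to 36.4% in single cells. The ranges of both classes overlapped almost wholly, and with classes exchanged within 2 plates no permutation p can fall below 0.5. Other cells were spread unevenly over the classes: neutrophil markers held 0.474% and 0.506% of transcripts in double cells of plates 20 and 21 against 0.243% and 0.123% in single cells, and globin genes 2.82% and 3.29% against 4.298% and 6.39%. Their part in the family share was not tested.

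No single member passed the test between the classes. For this, transcripts were summed per plate and class and all 8488 tested genes were fitted with edgeR, with the plate as a block. Of the 68 members tested, 0 passed a Benjamini-Hochberg adjusted p of 0.05, and 0 had an unadjusted p under 0.05, where the background was 0% of all tested genes called and 8.54% with an unadjusted p under 0.05. DESeq2 called 28 genes, 0 of them members. The members' median log2 fold, double over single, was -0.06, with -0.09 on plate 20 and -0.01 on plate 21. The median of the 1818 genes with at least 50 transcripts in every sum was also -0.06. In this fit 60 members lay below 0 and 8 above.

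The 4 members with the smallest p on the lower side were RPL5 (ENSDARG00000020197), RPL4, RPL7 and RPS12. RPL5 had 2006 and 2216 TMM-normalised CPM in double cells of plates 20 and 21, against 2289 and 2364 in single cells, with a log2 fold of -0.14 ± 0.09 (SE) and an adjusted p of 0.756. RPL4 had 400 and 360 in double cells against 452 and 427 in single cells, a log2 fold of -0.21 ± 0.14. On the higher side the 4 members with the smallest p were RPS24, RPL23, RPS29 and RPL37, with log2 folds between 0.0046 and 0.011, and several alternatives reversed their sign. RPS24, a small subunit protein, had 3465 and 4015 in double cells against 3382 and 4051 in single cells, which overlap.

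The balance of the subunits differed in opposite directions on the plates. Summed large subunit and stalk transcripts stood to small subunit transcripts at 1.36 and 1.35 in double cells of plates 20 and 21, against 1.38 and 1.34 in single cells. The stalk genes held 7.62% and 7.90% of the family in double cells, against 7.84% and 7.83% in single cells.

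The share of ribosomal protein transcripts was also set out by kind of cell, where medians lay further apart than between the sort classes. Cells were grouped in a fixed order by genes other than the members: globin-rich (over 5% of transcripts from globin genes), neutrophil-marker (at least 1% from neutrophil genes), macrophage-marker, non-blood (over 5% from muscle, epidermis and stroma genes), MYB-detected (at least 1 transcript of MYB, a transcription factor of blood progenitors) and other low-globin cells. The median share in neutrophil-marker cells was 9.88% on plate 20 (28 cells) and 11.97% on plate 21 (23 cells). In MYB-detected cells the median was 22.6% on plate 20 (127 cells) and 25.5% on plate 21 (117 cells). The interquartile ranges, 9.15% to 12.6% and 10.2% to 14.01% in neutrophil-marker cells against 19.4% to 25.6% and 22.8% to 28.8% in MYB-detected cells, did not overlap, while single cells did: the highest neutrophil-marker cell reached 26.3%.

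In counts, the median neutrophil-marker cell held 495 ribosomal protein transcripts on plate 20 and 885 on plate 21, against 2178 and 3111 in the median MYB-detected cell. Transcripts of other genes numbered 4715 and 5968 in neutrophil-marker cells against 7552 and 9132 in MYB-detected cells. Depth therefore differed as well, and since a deeper cell shows a MYB transcript more easily, the MYB-detected group is partly a choice by depth. In globin-rich cells the median was 21.8% on plate 20 (81 cells) and 22.6% on plate 21 (77 cells). Non-blood cells had 11.5% (11 cells) and 15.0% (7 cells). Other low-globin cells spread from 2.68% to 39.6% on plate 20 and from 5.11% to 32.3% on plate 21, with medians of 16.5% and 16.1%, and had the lowest median depth, 2747 and 3481 transcripts.

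**Figure D2:**
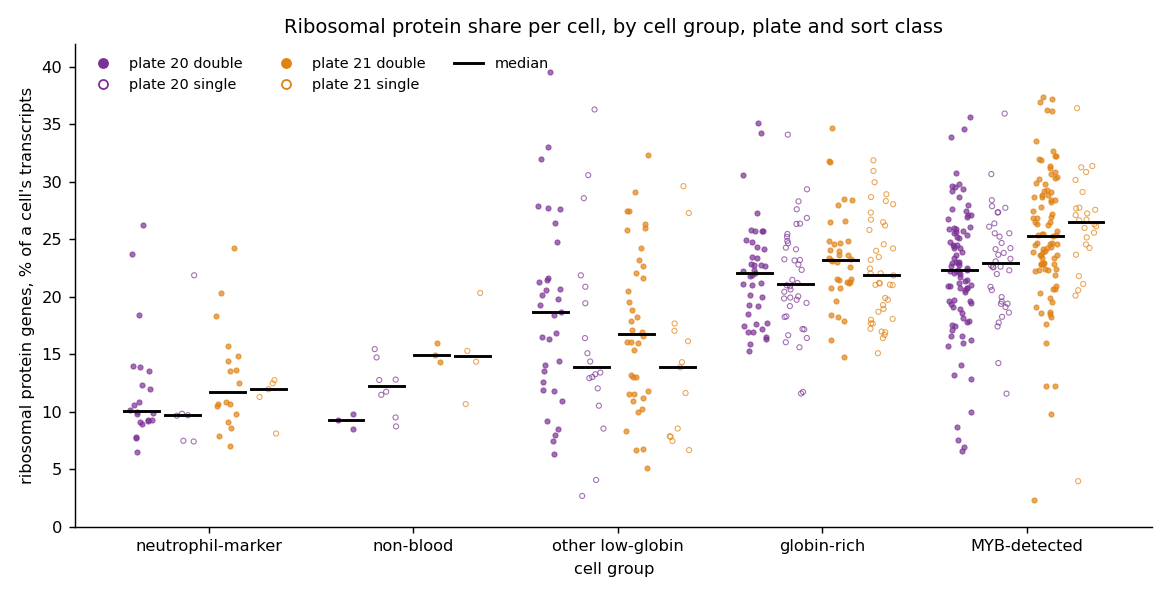
Share of a cell's transcripts from ribosomal protein genes, 1 point per cell, by cell group, plate (colour) and sort class (filled for double, open for single), with black lines at medians. Neutrophil-marker cells have medians of 9.88% and 11.97%, and MYB-detected cells of 22.6% and 25.5%; 2 macrophage-marker cells are not drawn.

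Every tested member was lower in neutrophil-marker cells than in MYB-detected cells. The comparison used sums per plate and group, with the genes that chose the groups taken out, and 67 of the 69 members had enough transcripts to be tested. All 67 were called lower by edgeR at an adjusted p under 0.05, where the background was 17.6% of 6961 genes called lower, 37.3% called in either direction and 48.4% with an unadjusted p under 0.05. The members' median log2 fold was -0.81, or 0.57-fold, with -0.72 on plate 20 and -0.92 on plate 21. Their folds ran from -1.20 for RPL3 to -0.47 for RPL22. The median over all tested genes was -0.31, and over the 311 genes with at least 50 transcripts in every sum it was 0.02. That minimum weighs mostly on the neutrophil-marker sums (154670 and 160009 transcripts, against 1422338 and 1559899 in MYB-detected cells). It therefore keeps genes that are high in neutrophil-marker cells, and 0.02 is no neutral measure of other genes. Members called lower also numbered 67 when the other low-globin cells were added to the MYB-detected cells, an alternative chosen after seeing the data. This wider reference held 178 and 168 cells on plates 20 and 21, most of them the same MYB-detected cells. There 1611 of 7493 genes were called lower. With every cell thinned to 500 transcripts, 46 of 67 members were called lower, where 114 of all 473 tested genes were.

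RPS9, a small subunit protein near the decoding site, had the smallest p: it had 2082 and 2168 TMM-normalised CPM in neutrophil-marker cells of plates 20 and 21, against 4321 and 4898 in MYB-detected cells, a log2 fold of -1.11 ± 0.13 (SE, adjusted p 0.000361). RPL11, the partner of RPL5 on the 5S ribosomal RNA, had 1229 and 1355 against 2509 and 3054, a log2 fold of -1.10 ± 0.14. RPS12, of the small subunit, had 2176 and 2517 in neutrophil-marker cells against 4377 and 5383 in MYB-detected cells. For these members both plates of neutrophil-marker cells lay below both plates of MYB-detected cells. RPS6, the small subunit protein phosphorylated by S6 kinases, had 2377 and 2459 in neutrophil-marker cells against 4502 and 5329 in MYB-detected cells, with a log2 fold of -1.02 ± 0.13. RPL3 fell to 369 and 284 in neutrophil-marker cells, against 821 and 677 in MYB-detected cells. RPL13A, rpl7a, RPL5 (ENSDARG00000015862), RPL7 and RPL35A, all of the large subunit, completed the 10 genes with the smallest p, with log2 folds between -1.08 and -0.89. RPL22 changed least, with 1947 and 1820 in neutrophil-marker cells against 2400 and 2852 in MYB-detected cells, a log2 fold of -0.47 ± 0.14 (adjusted p 0.0305).

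The other parts of the translation apparatus gave values on both sides of the family's. The background was 17.6% of all tested genes called lower, and their median log2 fold was -0.31. Of 51 tested ribosome biogenesis genes, which process ribosomal RNA and assemble subunits, 38 were lower in neutrophil-marker cells and 0 higher, with a median log2 fold of -2.17, or -2.14 with 3 genes that had no neutrophil transcript set at the floor of 3 counts over the group. npm1a, which encodes the nucleolar protein nucleophosmin, had 181 and 187 in neutrophil-marker cells against 1038 and 1137 in MYB-detected cells. Of 62 mitochondrial ribosomal protein genes, 33 were lower and 0 higher, with a median of -1.81. Initiation factors were lower in 23 of 33 (median -0.96), among them EIF4B, which stimulates the helicase that unwinds mRNA leaders. Elongation factors were lower in 3 of 6: EEF2, EEF1B2 and EEF1G. eef1a1l1, the most abundant of them, had 14766 and 12332 in neutrophil-marker cells against 16749 and 17940 in MYB-detected cells and did not pass the test (log2 fold -0.36 ± 0.15, adjusted p 0.0855). By contrast, 7 of 14 genes for handling nascent chains were higher and 3 lower, where the background was 19.7% of genes called higher; SEC61A1 and SEC61G of the translocation channel and SSR2 of the translocon-associated complex were among the higher ones, with the SEC61A1 row of smaller p, of 2 rows of that name, at 530 and 503 in neutrophil-marker cells against 134 and 120 in MYB-detected cells.

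Along the globin share the family behaved otherwise. Globin transcripts take up part of a cell's total, so the share of ribosomal protein genes was also computed without globin in the denominator. Cells over 5% globin, set against cells with at most 1%, had a higher share without globin. The difference in medians, as the mean over the sort classes, was 5.66 and 5.86 percentage points on plates 20 and 21. The classes were unlike: in double cells of plates 20 and 21 the medians were 24.2% and 25.1% against 19.5% and 22.7%. In single cells they were 23.2% and 24.7% against 16.6% and 15.4%. The globin-poor cells, however, held nearly all neutrophil-marker, macrophage-marker and non-blood cells. With these left out, a step chosen after seeing the data, the mean difference was 1.88 points. The medians of cells with at most 1% globin were then 21.5% and 24.4% in double cells of plates 20 and 21. In single cells they were 22.5% and 21.2%. Spearman's rho between the globin share and the ribosomal protein share without globin was also taken across single cells. In the 4 sets of plate and class (89 to 189 cells) it was 0.25 to 0.35. It was 0.11 to 0.20 with the cells of those other lineages left out. With the ribosomal protein share over all transcripts, rho was 0.14 to 0.21, and -0.07 to 0.03 with those lineages left out. These are descriptions over cells that share a library and differ in depth.

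**Figure D3:**
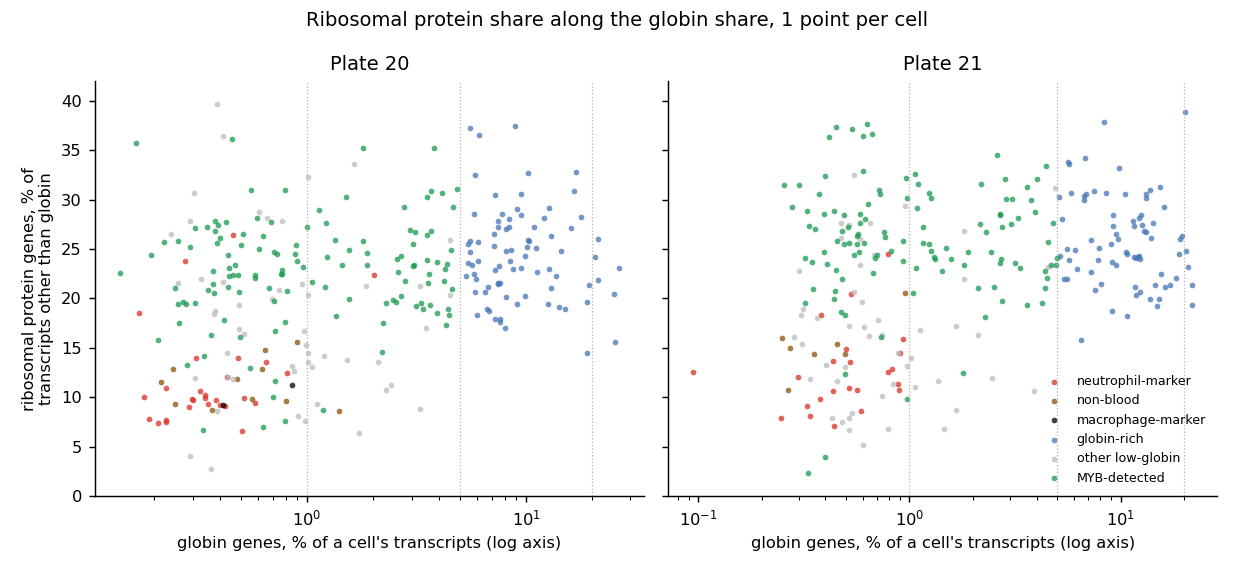
Share of ribosomal protein genes among transcripts other than globin against the globin share of the cell (log axis), 1 point per cell, in the left panel for plate 20 and in the right panel for plate 21, coloured by cell group, with dotted lines at 1%, 5% and 20% globin. Neutrophil-marker and non-blood cells lie mostly in the lower left, together with some other low-globin and MYB-detected cells. With neutrophil-marker, macrophage-marker and non-blood cells left out, little slope remains.

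By gene, 54 of 68 tested members were called higher in globin-rich than in globin-poor cells by edgeR, where the background was 17.8% of 7734 genes called higher, 41.5% called in either direction and 50.4% with an unadjusted p under 0.05, which 61 members had. The median log2 fold of the members was 0.26, with 0.32 on plate 20 and 0.19 on plate 21. The median over all tested genes was -0.03, but over the 1224 genes with at least 50 transcripts in every sum it was 0.29. That minimum weighs more on the globin-rich sums (617375 and 853363 transcripts) than on the globin-poor ones (1213970 and 1204360). Those genes thus lean towards ones high in globin-rich cells and are not matched to the members in level. Whether the family is set apart from genes of like level was not tested. RPS12 had 4754 and 5517 TMM-normalised CPM in globin-rich cells of plates 20 and 21, against 3649 and 4515 in globin-poor cells, a log2 fold of 0.34 ± 0.06 (SE, adjusted p 0.00278). RPLP1 had 7986 and 9200 in globin-rich cells against 6543 and 7813 in globin-poor cells, a log2 fold of 0.26 ± 0.05. RPL39, which lies in the exit tunnel, had 4516 and 4720 in globin-rich cells against 3267 and 3890 in globin-poor cells, a log2 fold of 0.37 ± 0.07. For these 3 members both globin-rich values lay above both globin-poor values. RPL34, RPL7, RPL35, RPL35A, rps27a, rps20 and RPS6 completed the 10 members with the smallest p, with log2 folds between 0.29 and 0.35. On the lower side stood rps11l alone, at 6.58 and 13.5 in globin-rich cells against 7.28 and 15.0 in globin-poor cells, a log2 fold of -0.15 ± 0.49 that did not pass.

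These calls depended on which globin-poor cells were used. With neutrophil-marker, macrophage-marker and non-blood cells left out of the globin-poor cells, 4 of 68 members were called higher (rps27.2, RPL29, RPL39 and RPS29), where the background was 16.5% higher, and the median log2 fold was 0.09. With MYB-detected cells of at most 1% globin as the globin-poor cells (69 and 62 cells), 1 of 67 was called higher, where the background was 16.1% higher, and the median was 0.05. That member was rps27.2, named here because it was the only one: it had 1019 and 1115 in globin-rich cells of plates 20 and 21, against 737 and 950 in those MYB-detected cells, a log2 fold of 0.35 ± 0.12 (SE, adjusted p 0.0162). In the comparison with all globin-poor cells, members called higher numbered 27 of 68 with DESeq2, where 396 of 7734 genes were called higher. They numbered 17 of 67 with sums per plate and class (828 of 4042 genes) and 6 of 67 after thinning (90 of 640 genes). Without the plate as a block they numbered 4 of 68 (1329 of 7734 genes). With globin-rich cells defined by over 20% globin (11 cells) the count was 0 and the members' median log2 fold was -0.53. All 67 tested members had a fold below 0, among them the 10 members named above, and 8 of 67 were called lower. The median over all 5775 tested genes in that fit was -0.92, and 337 of them were called lower. The members' median thus lay above that of all genes. The median share without globin, in contrast, was higher than in cells with at most 1% globin. In double cells of plates 20 and 21 it was 23.05% and 23.98% against 19.47% and 22.66%. In single cells it was 21.84% and 21.38% against 16.58% and 15.37%. These sets held 2 or 3 cells over 20% globin each. With other lineages left out, single cells of plate 20 and double cells of plate 21 were lower instead. Why folds and shares differed in direction was not tested.

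Ribosome biogenesis genes did not follow the ribosomal protein genes along the globin share. Of 50 tested biogenesis genes, 42 were lower in globin-rich than in globin-poor cells and 0 higher (median log2 fold -1.39), and 46 of 51 were lower than in MYB-detected cells of at most 1% globin (median -1.73), where the background was 23.7% and 19.3% of all tested genes called lower. NOP56, a core protein of the particles that methylate ribosomal RNA, had 187 and 242 in globin-rich cells against 769 and 820 in globin-poor cells, and nucleolin (ncl) had 261 and 279 against 795 and 886. Of 62 mitochondrial ribosomal protein genes, 10 were lower and 0 higher against all globin-poor cells, and 33 of 63 were lower against those MYB-detected cells. Of 33 initiation factors 9 were higher and 5 lower against all globin-poor cells, where the background was 17.8% higher and 23.7% lower, and 4 were higher and 10 lower against those MYB-detected cells; pabpc1b, a poly(A)-binding protein, had 395 and 410 in globin-rich cells against 193 and 214 in globin-poor cells, and EIF6, which keeps free large subunits from joining small ones, had 52.6 and 62.5 against 125 and 148. In the comparison of double with single cells, 0 genes of any of these lists were called.

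**Figure D4:**
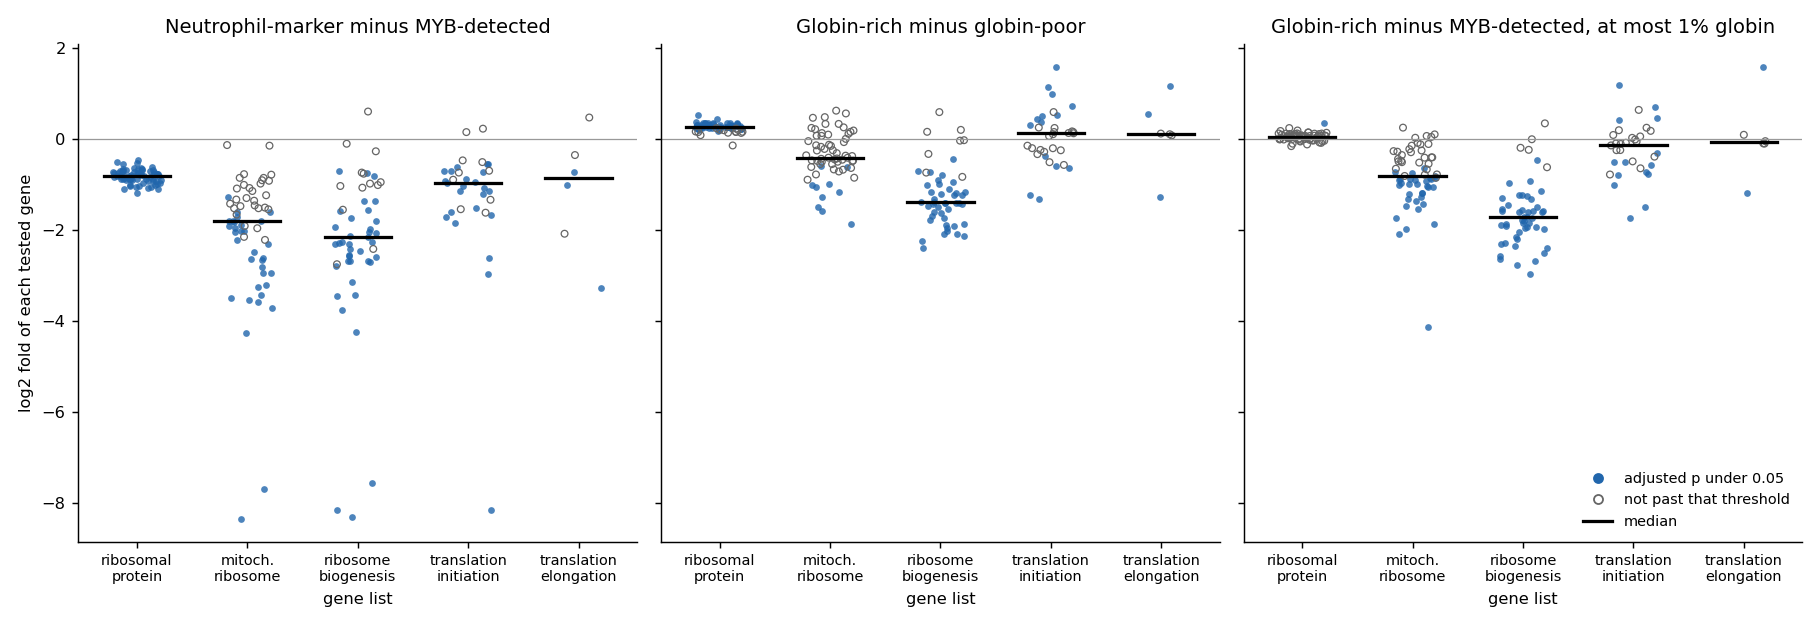
Log2 fold of each tested gene in 5 lists, for neutrophil-marker over MYB-detected cells (left), globin-rich over globin-poor cells (middle) and globin-rich over MYB-detected cells of at most 1% globin (right), with filled points at an adjusted p under 0.05 and black lines at list medians. Ribosomal protein genes have medians of -0.81, 0.26 and 0.05 and ribosome biogenesis genes of -2.17, -1.39 and -1.73; the fitted fold of a gene with no neutrophil-marker transcript is no measure of its size.

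Parts of the ribosome and related genes outside the name rule were set beside the family. RACK1, a scaffold protein on the small subunit, had 2485 and 2678 in neutrophil-marker cells against 4674 and 5681 in MYB-detected cells, a log2 fold of -0.999 ± 0.13 (adjusted p 0.000665). RPL22L1, a paralog of RPL22, had 356 and 529 in neutrophil-marker cells against 1123 and 1333 in MYB-detected cells, a log2 fold of -1.48 ± 0.17 (adjusted p 0.000286). In globin-rich against globin-poor cells, 4 of 5 such genes were called higher and 1 lower, where the background was 17.8% higher and 23.7% lower. RACK1, RPL22L1 and the S6 kinase gene rps6kb1a were among the higher ones, and RPL7L1 was lower. Against MYB-detected cells of at most 1% globin, rps6kb1a was higher and RPL7L1 lower, while RACK1 (log2 fold 0.09, adjusted p 0.608) and RPL22L1 (0.08, adjusted p 0.62) did not pass, with a background of 16.1% higher and 19.3% lower.

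The pair of RPL22L1 and RPL22 was also compared between cell groups. RPL22 is an RNA-binding protein of the large subunit known in mice for its part in lymphocyte development. RPL22L1 made up 15.5% of the pair (95% interval 11.8% to 19.7%) in the neutrophil-marker cells of plate 20 and 22.5% (18.3% to 27.17%) in those of plate 21. In MYB-detected cells the same share was 31.9% (30.6% to 33.2%) on plate 20 and also 31.9% (30.7% to 33.03%) on plate 21. These intervals cover counting error only, and the neutrophil-marker cells of the 2 plates themselves had unlike shares; the difference between the groups was not tested over samples.

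Single members were set against the family in all 3 comparisons. A member was taken to depart when its log2 fold differed from the family's median by over 0.5 in the same direction on both plates, among members with at least 50 transcripts in every sum. There were 0 such members of 67 between double and single cells, 0 of 67 along the globin share and 0 of 65 in neutrophil-marker cells, where the background was 3.52%, 30.6% and 55.9% of genes. Background genes were also measured from the family's median, so these percentages include the distance between the family and other genes. The minimum of 50 transcripts also leans towards genes high in globin-rich or neutrophil-marker cells, and background genes were not matched to the members in level. The percentages are therefore no measure of how closely the family holds together. The count of members was also 0 at a threshold of 0.3 or 1. With no minimum, a choice made after seeing the data, RPL3 departed by over 0.3 in neutrophil-marker cells, by -0.43 on plate 20 and -0.33 on plate 21; it had 44 transcripts in the neutrophil-marker sum of plate 21, under the minimum. In the same way rps11l departed along the globin share, by -0.45 and -0.34, at a level too low for the minimum.

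**Figure D5:**
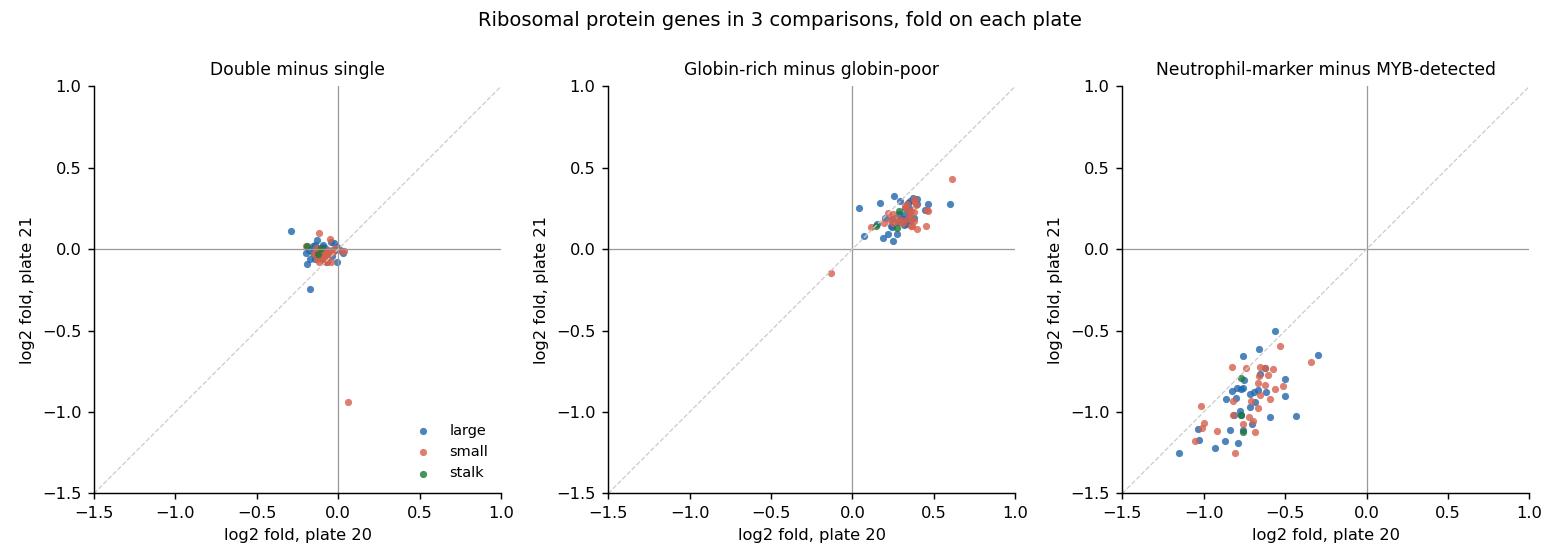
Log2 fold of each tested ribosomal protein gene on plate 20 (x axis) and plate 21 (y axis), coloured by subunit, for double over single, globin-rich over globin-poor and neutrophil-marker over MYB-detected cells. The points of each panel form 1 cloud, with medians of -0.06, 0.26 and -0.81, and the point apart from the cloud in the first panel, and below 0 in the second, is rps11l, which has 61 transcripts in all.

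Smaller shifts within the family were seen when each member was taken as a share of the family's transcripts. In neutrophil-marker against MYB-detected cells, 2 of 67 members had a share higher by over 0.2 on the log2 scale on both plates and 6 had a share lower by as much. RPL22 held 1.42% and 1.26% of the family on plates 20 and 21 in neutrophil-marker cells against 1.06% and 1.06% in MYB-detected cells, and RPS29 held 1.302% and 1.27% against 1.001% and 1.09%. RPS9 held 1.51% and 1.51% in neutrophil-marker cells against 1.91% and 1.82% in MYB-detected cells, and RPL3, RPL11, RPL13A, rpl7a and RPS6 were also lower. RPL3 had only 55 and 44 transcripts in the neutrophil-marker cells of plates 20 and 21, so its shift carries more counting error. The median absolute shift of the 67 members was 0.09 on plate 20 and 0.13 on plate 21, and these shifts were not tested. Between globin-rich and MYB-detected cells 0 members shifted by over 0.2 on both plates in either direction. By over 0.1 there were 2: rps27.2 held 0.420% and 0.416% in globin-rich cells against 0.357% and 0.387% in MYB-detected cells, and RPL5 (ENSDARG00000015862) held 1.33% and 1.17% against 1.54% and 1.29%. Large subunit and stalk over small subunit transcripts stood at 1.36 and 1.34 in neutrophil-marker cells, 1.35 and 1.35 in globin-rich cells and 1.38 and 1.34 in MYB-detected cells of plates 20 and 21.

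Across single cells the members varied with the rest of the family. Each member's share of transcripts correlated, at a median Spearman's rho of 0.72 over the 300 cells of plate 20 and 0.76 over the 275 of plate 21, with the share of the other members, over the 67 members with at least 1000 transcripts. Given a cell's family total, the variance of a member's count over its Poisson value was 1.45 (plate 20) and 1.56 (plate 21) at the median, in cells with at least 200 family transcripts. RPLP0 had the highest ratio, at 3.86 and 4.52. For an equal relative spread this ratio rises with a member's level, and RPLP0 is among the members of highest level. The order of members by this ratio is therefore no order by relative spread. The share of RPLP0 in the family ran from 1.49% to 3.35% between the 10th and 90th percentile of MYB-detected cells on plate 20. On plate 21 it ran from 1.38% to 3.38%, and the medians were 2.56% and 2.43%. RPS2, RPS26 (ENSDARG00000030408), rps20 and RPL38 followed on plate 20, where they stood between 2.28 and 2.76. On plate 21 RPL38, rpl7a, rps20 and RPS2 followed, between 2.61 and 2.97, and that RPS26 row stood at 2.19. RPL38 is known in mice for its part in the translation of Hox mRNAs.

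The share of elongation factors moved with that of ribosomal protein genes from cell to cell. Spearman's rho was 0.63 to 0.74 in the 4 sets of plate and class, and 0.51 to 0.61 within neutrophil-marker, globin-rich and MYB-detected cells of each plate (23 to 127 cells). For ribosome biogenesis genes it was 0.41 to 0.58 in the 4 sets and 0.10 to 0.64 within those groups, with 0.23 and 0.10 in MYB-detected cells of plates 20 and 21. Depth is shared by both measures of a cell. Its own rho in the 4 sets, with the ribosomal protein share without globin, was 0.12 to 0.26. Within those groups its rho with the share over all transcripts was -0.27 to 0.32. Mitochondrial transcripts gave -0.24 to 0.12 in the 4 sets with the share over all transcripts.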

How the data were processed

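The authors deposited 1 table of expected counts per plate: whole identifier counts corrected for identifiers drawn more than once from 4096 (checked within 0.01 for 100% of values above 0), not scaled to depth and called transcripts here. BWA and the build Zv9 are named in the submitters' processing notes; no version or counting tool is stated there. The deposited layouts, per the file headers, give each well's sort class; numbering along rows was assumed for plate 21. Spike-ins (163600 and 188463 transcripts) and 21 wells without a class were left out of comparisons.

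Members and lists were chosen with earlier results of these data known. Genes were named by level (5 highest and lowest), by p (4 per direction, 10 where called), as copies, or as 3 genes per translation list. Transcripts were summed per plate and group (4 sums, 1 residual degree of freedom, with p-values resting on variance shared over genes), rounded, and tested by the quasi-likelihood F test of edgeR 4.0.16 after filterByExpr and TMM scaling, with Benjamini-Hochberg adjustment, in R 4.3.3, plate as a block; DESeq2 1.42.0 was an alternative. SEs came from F values, and per-plate folds from CPM plus 1. The plate pairs the groups, since both were sorted into the same plates. The fits were also run on simulated data with a common dispersion for all genes and no plate effect. That setting does not check how reliable the calls from these plates are. Some genes are not reported here. No doublet caller was run, and no genome was used.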

Additional observations from a re-analysis of the deposited data

Results flagged for a closer look

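The median ribosomal protein share of double minus single cells had opposite signs in different cell groups, on both plates. It was 0.940 and 1.38 percentage points in globin-rich cells of plates 20 and 21, and 4.78 and 2.93 points in other low-globin cells, against -0.614 and -1.20 points in MYB-detected cells. The share of summed transcripts did not repeat this throughout. In other low-globin cells of plate 20 it was 19.24% in double against 19.48% in single cells. In MYB-detected cells of plate 21 it was nearly equal, 25.01% against 25.07%. These differences between groups were not tested, and the other low-globin single cells numbered 18 and 13.

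Wells without a class in the layouts, which entered no comparison, also held ribosomal protein transcripts: 11138 in the 9 wells of plate 20 and 14921 in the 12 of plate 21. Of these wells 7 and 9 held at least 500 transcripts, with median ribosomal protein shares of 22.1% and 17.1%.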

How the results depend on the processing

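In neutrophil-marker against MYB-detected cells the members' median stayed below 0 in every alternative, at -0.80 and -0.61 with 1 plate left out and -1.18 with no filter on low counts, where the median of all genes was -1.43; DESeq2 called 1475 genes and thinning left 263. Between double and single cells 0 members were called in any alternative, while genes called overall numbered 28 with DESeq2, 368 without a filter, 37 with library totals alone, 9 after thinning, 267 without non-blood cells, 3 with the plate 21 layout read down columns and 141 in MYB-detected cells only; thinning gave a members' median of 0.0166.

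Signs of 4 members near 0 turned: RPL37, RPS29 and RPL23 with DESeq2 size factors (-0.0054, -0.0053 and -0.0043) and with DESeq2 (-0.0055, -0.0053 and -0.0042), RPL37 after thinning (-0.0705), RPS29 and RPL23 without non-blood cells (-0.0038 and -0.0047) and with the other layout (-0.0018 and -0.0303). With 1 plate left out RPL37 lay between -0.0295 and 0.0169, RPS24 between -0.0195 and 0.0202, RPS29 between -0.017 and 0.0049 and RPL23 between -0.039 and 0.0287.

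Along the globin share the members called higher numbered 27 with DESeq2, 4 without the replicate block, 6 after thinning (median 0.10), 33 without non-blood cells, 17 with sums per plate and class (0.15), 4 without other lineages (0.0859), 1 against MYB-detected cells of at most 1% globin (0.0463) and 0 at over 20% globin (-0.53, 11 cells). Genes called overall numbered 1070 with DESeq2 (396 higher), 255 after thinning (90 higher) and 1767 with sums per plate and class (828 higher). Without the replicate block 1329 of 7734 genes were called higher, and without non-blood cells 1198 of 7510. At over 20% globin 407 genes were called (70 higher, 337 lower), 8 members among the lower, and the median of all genes was -0.92. All 67 members tested there had a fold below 0. The median share without globin was not lower there than in all cells with at most 1% globin, in any set of plate and class. At over 20% globin the folds of RPL7 (-0.56), RPL35 (-0.36), RPS6 (-0.53), RPLP1 (-0.22), RPL34 (-0.38), rps27a (-0.55), rps20 (-0.022), RPL39 (-0.22), RPS12 (-0.18) and RPL35A (-0.51) turned, and after thinning those of RPL35 (-0.072) and rps27a (-0.0123). The difference in share between globin-rich and globin-poor cells was 6.10 points at a minimum of 250 transcripts, 4.97 at 1000, 4.22 without non-blood cells, 4.64 with the other layout and 1.88 without other lineages. The cause of these shifts was not tested. The replicate block changed no other count of members called: without it 0 members were called between the classes and 67 in neutrophil-marker cells. Library totals alone, left-out wells and groups, and comparisons with other globin-poor or low-globin cells were chosen after seeing the data. With 1 plate left out no residual degree of freedom remains, and those folds have no test. With 2 plates, and 5 or 6 single cells per plate among neutrophil-marker cells, small differences between the classes cannot be seen.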
